A study of Mus musculus with 8 samples.

Results

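The comparison described here set Oscar-deficient knee joints against wild-type knee joints after injury, at 2 and 4 weeks after destabilization of the medial meniscus (DMM), an operation that frees the inner meniscus of the knee and leads to osteoarthritis. Its members are the 4 DMM libraries among the 8 libraries sequenced, namely WT DMM and KO DMM at 2 weeks and at 4 weeks, paired by week. They were chosen by genotype, surgery and week as the sample titles give them, and by no measured value. The animals were males of strain C57BL/6, with an age of 10 weeks on the sample records; WT mice were C57BL/6J and KO mice were Oscar-/- on C57BL/6, and all 4 DMM groups carried the same surgery. The other 4 libraries came from sham-operated knees of both genotypes at the same weeks and were used here for the estimate of spread and as the uninjured comparison. Each library combined 10 articular cartilages, so that there was 1 library per condition and no spread between animals could be seen.

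OSCAR, the osteoclast-associated receptor, is an immunoglobulin-like receptor of myeloid cells. It binds exposed collagen and signals through the Fc receptor gamma chain, an adaptor with an immunoreceptor tyrosine-based activation motif (ITAM), and it costimulates the formation of osteoclasts, the cells that resorb bone. In osteoarthritis cartilage matrix is degraded by metalloproteinases, and chondrocytes change their matrix output or die. The question put to these libraries was which genes differ between injured joints with and without the receptor.

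The labels name the tissue as articular cartilage. Expression is given as TPM, the level of a gene per length, scaled to the same total in every library, and the list shares below are shares of all TPM. Hemoglobin genes held 30.7% and 31% of TPM in WT DMM at 2 and 4 weeks and 34.5% and 37% in KO DMM. The neutrophil list held 9.04% and 9.66% in WT DMM and 7.04% and 9.14% in KO DMM. The 20 chondrocyte markers together held 0.13% and 0.153% in WT DMM and 0.129% and 0.111% in KO DMM. Chondrocyte genes were thus present in all 4 libraries, as a small share beside blood and marrow genes. In bulk samples of this kind, fewer cells of a type and less RNA per cell cannot be told apart. Total expected counts ran from 13262146 to 18059010 in the DMM libraries. By the lane number in the deposited names, all 2-week libraries were sequenced on lane 5, whereas at 4 weeks WT was on lane 3 and KO on lane 1, so that at 4 weeks lane and genotype cannot be told apart; the 2-week difference lies within 1 lane.

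Differences between genotypes are given on 2 scales. The difference at each week is log2 KO minus WT of CPM, counts relative to library size, after TMM scaling, which sets the bulk of genes equal between libraries. The fitted difference joins both weeks in an edgeR quasi-likelihood test over 12538 expressed protein-coding genes, with Benjamini-Hochberg adjustment over all of them, and a gene was called at an adjusted p under 0.05. No condition was repeated, and the model gives each combination of genotype and surgery its own level and adds a term for week. The p-values measure the spread left over, that is, how far the change between weeks differs among the combinations. They do not measure the spread between animals. On the TPM scale the median log2 difference over all genes tested was -0.13 at 2 weeks and -0.27 at 4 weeks, so that TPM values of a gene with no TMM difference still lean toward WT.

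After DMM, 5 genes were lower and 1 gene was higher in KO than in WT, which is 0.0399% and 0.00798% of the genes tested. The genes lower in KO were Oscar itself, its neighbor Ndufa3, the paired immunoglobulin-like receptor genes Pirb and Pira2, and Angptl2. The gene higher in KO was Gm14548, a member of the same receptor gene family. Of these 6 genes, 5, the deleted Oscar included, lie within 2 Mb of Oscar on chromosome 7, a stretch with 57 of the 12538 genes tested. All 6 had the same sign at both weeks. The call rested on few libraries: leaving out the WT DMM library of 2 or of 4 weeks left 0 genes called by edgeR (740 and 1138 genes at an unadjusted p under 0.05), leaving out KO DMM at 4 weeks left Oscar alone, and a fit to the 4 DMM libraries alone called 43 lower and 46 higher genes, among them all 6. DESeq2 gave an adjusted p to 2086 of the genes and called 15 lower and 40 higher. Among the 6 genes only Pirb had such a value, and it was called. Oscar, Ndufa3, Pira2, Gm14548 and Angptl2 had none, so DESeq2 could not call them. DESeq2 counts for the gene lists below are likewise limited to genes with an adjusted p.

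**Figure D1:**
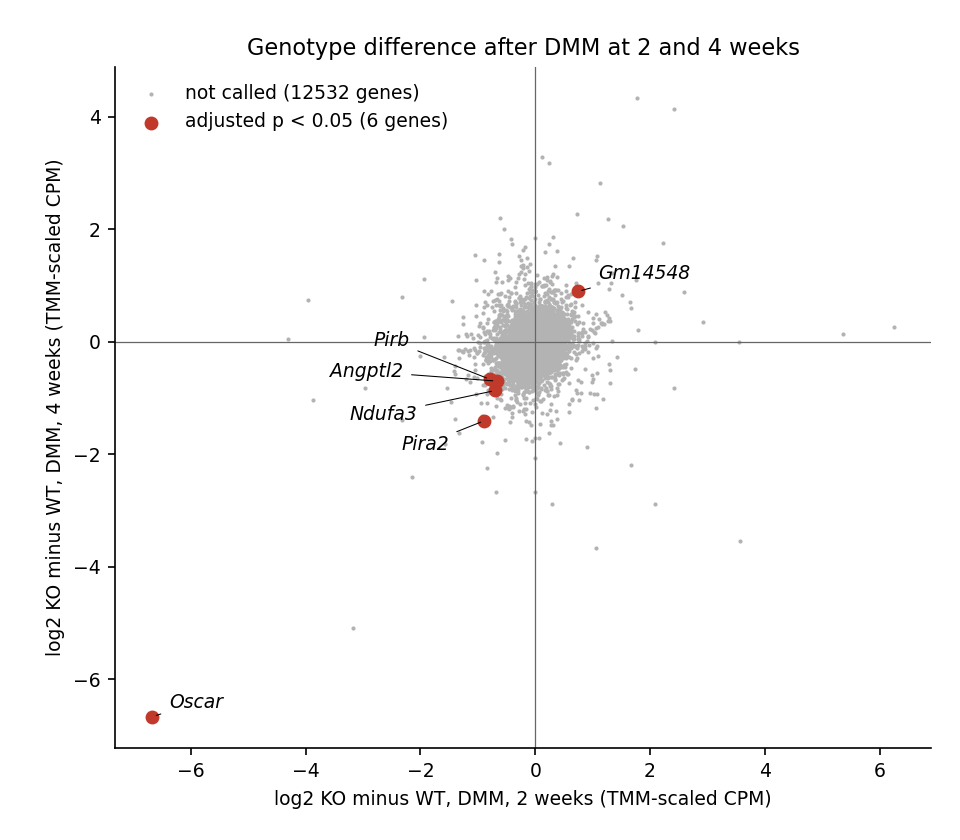
Each point is a gene, placed by its log2 difference KO minus WT after DMM at 2 weeks (horizontal axis) and 4 weeks (vertical axis), in TMM-scaled CPM; red points are the 6 genes called by edgeR and grey points the other 12532. Oscar stands alone at the lower left, Pira2, Pirb, Ndufa3 and Angptl2 lie below 0 at both weeks, and Gm14548 lies above 0 at both.

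The upstream sequences of the neighbors are shown because the called genes other than Angptl2 fall in 1 short stretch of chromosome 7 and 3 of them are copies of each other. They were read from the RefSeq promoter table of the GRCm38.p6 build. Oscar lies on the minus strand at chr7:3609813-3616157 and Ndufa3 starts 1215 bases away on the plus strand, at chr7:3617373-3620327. The 250 bases before the Ndufa3 start, at chr7:3617123-3617372 on the plus strand, lie inside that gap, and no part is capitalized.
Ndufa3: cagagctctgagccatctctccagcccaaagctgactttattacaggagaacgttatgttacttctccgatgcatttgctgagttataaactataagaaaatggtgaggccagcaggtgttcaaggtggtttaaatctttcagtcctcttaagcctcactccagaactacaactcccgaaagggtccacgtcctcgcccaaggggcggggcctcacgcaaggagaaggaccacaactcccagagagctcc

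The next 3 sequences are 120 bases from upstream of the 3 called receptor genes, all on the minus strand, at chr7:3720485-3720604 for Pirb, chr7:3845182-3845301 for Pira2 and chr7:3898243-3898362 for Gm14548. Capitals mark the 7 positions at which any of the 3 differs from another.
Pirb: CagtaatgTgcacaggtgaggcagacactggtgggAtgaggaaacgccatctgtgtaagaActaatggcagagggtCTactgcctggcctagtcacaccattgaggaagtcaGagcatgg
Pira2: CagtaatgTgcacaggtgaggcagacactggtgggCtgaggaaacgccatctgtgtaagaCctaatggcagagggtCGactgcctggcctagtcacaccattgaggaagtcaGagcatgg
Gm14548: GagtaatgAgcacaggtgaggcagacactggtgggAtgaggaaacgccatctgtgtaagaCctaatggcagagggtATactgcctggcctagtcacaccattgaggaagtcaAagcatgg
Pira2 differed from Pirb at 3 of the 120 positions and Gm14548 at 5. The likeness reaches into the transcripts, which bears on how reads can be assigned: of all 100-base stretches of their annotated transcripts, about as long as a read, 84.1% of those of Pira2, 51.9% of those of Gm14548 and 20.7% of those of Pirb also occur in another gene. The closest copy of Pira2 was the pseudogene Gm15922, which held 71.9% of its stretches. Oscar, Ndufa3 and Angptl2 shared none of their 2014, 1239 and 6375 stretches with another gene. The split of reads between Pira2, Gm14548 and Pirb is therefore an estimate of RSEM and uncertain, while the values of Oscar, Ndufa3 and Angptl2 do not depend on it.

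Oscar, the deleted gene, checks the genotype labels. Its level after DMM was 3.53 TPM at 2 weeks and 4.21 TPM at 4 weeks in WT, and 0 TPM in both KO libraries. The expected counts were 118 and 94 in WT against 0 and 0 in KO. With 3 counts per library as the limit that a count of 0 allows, the level in WT was at least 30.8-fold higher at 2 weeks and at least 38.6-fold higher at 4 weeks (edgeR quasi-likelihood adjusted p = 0.00153). WT and KO did not overlap, and each of the 4 libraries matched its genotype label. Oscar was at 0 TPM in the KO sham libraries too, so this gene does not check the labels of surgery or week.

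Ndufa3 (ENSMUSG00000035674), which encodes a subunit of mitochondrial complex I, stood at 148 TPM in WT and 84.5 TPM in KO at 2 weeks, and at 224 TPM in WT and 102 TPM in KO at 4 weeks. Both KO libraries were below both WT libraries. The log2 difference was -0.69 at 2 weeks and -0.87 at 4 weeks, and the fitted fold was 1.72 in favor of WT (log2 -0.78 ± 0.11 SE, adjusted p = 0.0399, edgeR). After sham surgery the gene differed in the same direction, by -1.30 and -0.97.

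The paired receptors are immunoglobulin-like receptors of myeloid and B cells: PIR-B carries inhibitory motifs, and PIR-A receptors, of which Pira2 encodes one, are activating and signal, like OSCAR, through the Fc receptor gamma chain. Pirb (chr7:3711409-3720391) was at 57.5 TPM in WT and 33.5 TPM in KO at 2 weeks, and at 83.4 TPM and 48 TPM at 4 weeks. Its log2 difference was -0.78 and -0.67 (fitted -0.73 ± 0.0957 SE, adjusted p = 0.0363, edgeR). Pira2 (chr7:3836812-3845051) was at 12.6 TPM in WT and 5.38 TPM in KO at 2 weeks, and at 19.7 TPM and 5.37 TPM at 4 weeks. The KO libraries were thus nearly equal to each other, and the difference, log2 -0.88 and -1.40, was the largest among the called genes after Oscar (fitted -1.15 ± 0.124 SE, adjusted p = 0.00986, edgeR).

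Gm14548 (chr7:3884242-3898120), a predicted gene of the receptor cluster, went the other way. It was at 13.7 TPM in WT and 21 TPM in KO at 2 weeks, and at 17.4 TPM and 27 TPM at 4 weeks. Both KO libraries were above both WT libraries, with log2 differences of 0.74 and 0.89 (fitted 0.81 ± 0.111 SE, adjusted p = 0.0363, edgeR). Lilra6, another leukocyte receptor gene of the cluster, was at 14.5 and 16.1 TPM at 2 weeks and 19.1 and 23.8 TPM at 4 weeks, in WT and KO, and did not pass the test (log2 0.28 and 0.58, adjusted p = 0.263). Among copies not annotated as protein-coding, expected counts of Gm15922 were 363 in WT and 421 in KO at 2 weeks and 318 and 750 at 4 weeks. In Gm15925 they were 2 and 30, and 3 and 42. These pseudogene counts were higher in KO at both weeks while those of Pira2 were lower, at 714 and 303, and 749 and 348.

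Of the 57 genes tested within 2 Mb of Oscar, Oscar itself included, 22 were lower and 12 higher in KO at both weeks. These are 38.6% and 21.1%, against 32.9% and 31.1% of all genes tested. Median log2 differences over the 57 were -0.03 at 2 weeks and -0.09 at 4 weeks, so that most of the region did not lean far to either side. Unadjusted p-values under 0.05 were found for 15 lower and 4 higher genes, together 33.3% of the 57; over all genes the shares were 6.39% lower and 6.28% higher, and over 906 tested genes elsewhere on chromosome 7 the share was 10.4%. The immediate neighbors Tfpt and Prpf31 had log2 differences of -0.07 and -0.12, and of -0.01 and -0.37. Farther out, Leng1 stood at -0.37 and -0.31 and Tsen34, a subunit of the tRNA splicing endonuclease, at -0.28 and -0.38. Tarm1, a receptor gene of myeloid cells, was at 6.48 TPM in WT and 3.92 in KO at 2 weeks and at 8.63 and 7.65 at 4 weeks (adjusted p = 0.263). None of these 5 genes passed the adjusted test.

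Eps8l1, an actin regulator in the same region, had 21 counts in WT and 1 in KO at 2 weeks, and 31 and 0 at 4 weeks. The ratio at 2 weeks was 16.5 (95% exact interval 2.65 to 681, counting error only), and WT was at least 12.7-fold higher at 4 weeks; the adjusted p after DMM was 0.109. The natural killer cell receptor gene Ncr1 had 6 and 18 counts at 2 weeks and 26 and 70 at 4 weeks, in WT and KO (adjusted p = 0.263).

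**Figure D2:**
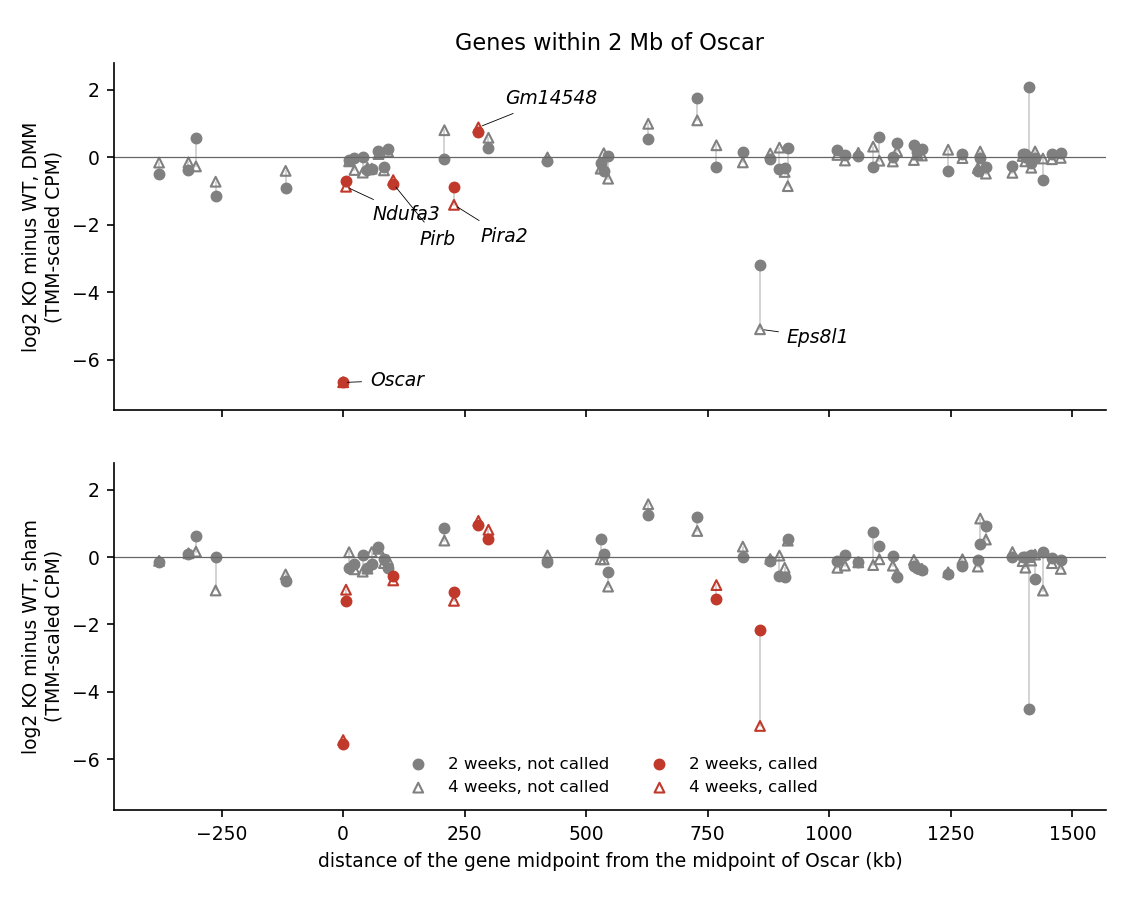
The 57 tested genes within 2 Mb of Oscar are placed by the distance of their midpoint from that of Oscar in kb, with log2 KO minus WT after DMM (upper panel) and after sham surgery (lower panel); circles are 2 weeks, open triangles 4 weeks, and red marks genes called by edgeR. After DMM the 5 called genes lie at Oscar or close to its right, at the same side of 0 as after sham, where 8 genes of the region were called.

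Angptl2, on chromosome 2, was the called gene outside this region. It encodes a secreted angiopoietin-like protein that is made by mesenchymal and endothelial cells and takes part in inflammation and matrix remodeling. It stood at 20.8 TPM in WT and 11.9 TPM in KO at 2 weeks, then at 15.9 TPM in WT and 8.16 TPM in KO at 4 weeks. Each KO library was below both WT libraries, with log2 differences of -0.67 and -0.70 and a fitted fold of 1.61 in favor of WT (log2 -0.68 ± 0.0917 SE, adjusted p = 0.0363, edgeR). After sham surgery its difference had the opposite sign, 0.53 and 0.51.

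Of the genes with the next lowest p-values, those that follow had lower values in KO, and edgeR called none of them. DESeq2 called Serpinf1, Mmp2 and Lum, each at an adjusted p of 0.000984, and over all alternatives run their adjusted p-values went from that value to 0.981. On TPM, where the median gene leans toward WT, limma called Serpinf1 (adjusted p = 0.021) and Lum (0.0234) and not Mmp2 (0.14). Cd109, a surface protein that binds TGF-beta, was at 7.36 and 4.87 TPM at 2 weeks and 7.43 and 4.16 TPM at 4 weeks, in WT and KO (log2 -0.54 ± 0.0886 SE, adjusted p = 0.109). Serpinf1, which encodes the secreted factor PEDF, was at 153 and 97.1 TPM at 2 weeks and 128 and 67.1 TPM at 4 weeks (adjusted p = 0.109). Col15a1, a basement membrane collagen gene, was at 13.2 and 8.22 TPM and then 8.50 and 4.21 TPM (adjusted p = 0.109). For all 3 genes every KO library was below every WT library at its own week. Nbl1, a secreted BMP antagonist, stood at 35.4 and 21.7 TPM and at 32 and 19.2 TPM (adjusted p = 0.109). Mmp2, the gelatinase that the study names among its candidate genes, was at 69.1 TPM in WT and 46.9 TPM in KO at 2 weeks, then at 59.4 TPM in WT and 33.9 TPM in KO at 4 weeks, a log2 difference of -0.46 and -0.73 (fitted -0.59 ± 0.0988 SE, adjusted p = 0.109). Lum, which encodes the collagen-binding proteoglycan lumican, was at 153 and 93.6 TPM and at 122 and 63.3 TPM (adjusted p = 0.231).

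Genes of fibrillar and fibril-associated collagens, the main load-bearing proteins of bone, cartilage and fibrous tissue, were lower in KO above all at 4 weeks. Of 21 tested, 15 were lower and 0 higher at both weeks, which is 71.4% against 32.9% of all genes. Their median log2 difference was -0.11 at 2 weeks and -0.84 at 4 weeks, beside -0.0002 and -0.01 over all genes. By edgeR none passed the adjusted test and 14 had an unadjusted p under 0.05, all lower; DESeq2 called 4 and limma 0. Col1a1 was at 531 TPM in WT and 424 TPM in KO at 2 weeks, then at 477 TPM in WT and 199 TPM in KO at 4 weeks (fitted log2 -0.57 ± 0.186 SE, adjusted p = 0.296). Col1a2 was at 750 and 584 TPM and then at 635 and 321 TPM (adjusted p = 0.269 by edgeR and 0.00778 by DESeq2, and up to 0.981 over all alternatives). Col3a1, the collagen of loose and repairing tissue, was at 188 and 133 TPM and then at 127 and 52.6 TPM (log2 -0.34 and -1.04, adjusted p = 0.329). In each of these 3 genes the gap between genotypes was wider at 4 weeks, where the lanes differ too, and the collagen share of TPM was 0.192% and 0.158% at 2 weeks and 0.175% and 0.0801% at 4 weeks, in WT and KO.

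Of 19 tested genes of the enzymes and chaperones that process collagen, 14 were lower and 1 higher at both weeks, with medians of -0.11 and -0.45. Pcolce, an enhancer of procollagen cleavage, was at 79.4 and 66.3 TPM at 2 weeks and 78.3 and 39.6 TPM at 4 weeks (adjusted p = 0.263), and the collagen chaperone Serpinh1 was at 131 and 117 TPM and at 127 and 66.6 TPM (adjusted p = 0.339). Of 24 proteoglycan and matrix glycoprotein genes, 17 were lower and 0 higher at both weeks, with medians of -0.21 and -0.46. Fmod, a collagen-binding proteoglycan gene, was at 44.3 and 35.8 TPM and at 49.3 and 19.4 TPM (log2 -0.17 and -1.08, adjusted p = 0.268). Bgn and Dcn, the biglycan and decorin genes, had adjusted p-values of 0.312 and 0.637. By edgeR no member of either list was called, and 8 and 9 members had an unadjusted p under 0.05, all lower; DESeq2 called 0 and 2, and limma 0 and 1.

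Cartilage genes proper had opposite signs at the 2 weeks. The median over the 18 chondrocyte markers tested was 0.17 at 2 weeks and -0.57 at 4 weeks; 5 were lower and 2 higher at both weeks (27.8% and 11.1%, below the 32.9% and 31.1% of all genes). Col2a1, the collagen of hyaline cartilage, was at 93.2 TPM in WT and 128 TPM in KO at 2 weeks, and at 170 TPM in WT and 59.5 TPM in KO at 4 weeks. The WT and KO values therefore overlapped, with log2 differences of 0.59 and -1.26 (fitted -0.46 ± 0.357 SE, adjusted p = 0.599, edgeR). Acan, which encodes the large cartilage proteoglycan aggrecan, was at 28.4 and 30.2 TPM at 2 weeks and 31.6 and 19.3 TPM at 4 weeks (log2 0.18 and -0.55, adjusted p = 0.666). By PCR and immunostaining after DMM, the paper reported higher aggrecan and type II collagen in KO than in WT. Comp, a pentameric matrix protein gene, was at 141 and 155 TPM and at 206 and 129 TPM. The joint lubricant Prg4, at 430 and 417 TPM and at 467 and 436 TPM, and Chad, at 395 and 365 TPM and at 395 and 315 TPM, had log2 differences between -0.06 and 0.06 at both weeks.

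In contrast with these, the 13 genes of hypertrophic chondrocytes, the enlarged cells that precede mineralization, were lower in KO at both weeks in 12 cases and higher in 0, with medians of -0.13 and -0.32. Many of them are also made by bone cells. Col10a1, their marker collagen, was at 152 and 133 TPM and at 155 and 104 TPM (log2 -0.06 and -0.31, adjusted p = 0.742). Of 16 osteoblast and osteocyte genes 14 were lower and 0 higher at both weeks, and 7 had an unadjusted p under 0.05. By edgeR 0 of the 16 were called, while DESeq2 called 0 and limma 1. Bglap, which encodes the bone matrix protein osteocalcin, was at 2207 TPM in WT and 1612 TPM in KO at 2 weeks, then at 2348 TPM in WT and 1529 TPM in KO at 4 weeks (log2 -0.33 and -0.34, adjusted p = 0.329 by edgeR, 0.125 by DESeq2 and 0.0234 by limma, and from 0.0206 to 0.981 over all alternatives). The osteoblast list held 0.559% and 0.437% of TPM at 2 weeks and 0.574% and 0.38% at 4 weeks, in WT and KO; the part of bone tissue in the matrix differences was not tested.

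**Figure D3:**
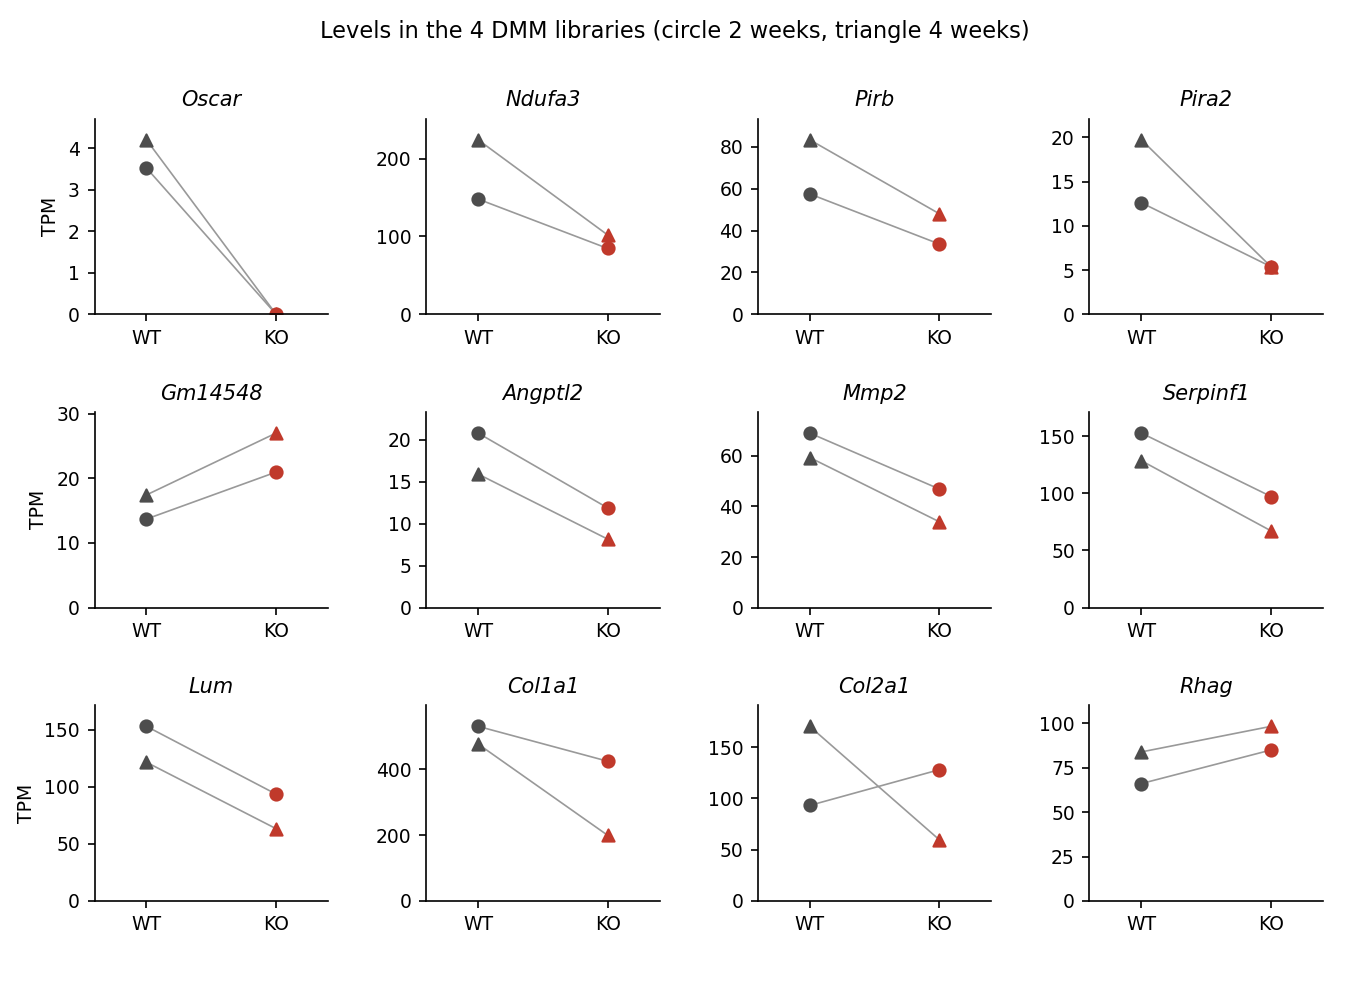
TPM of 12 genes in the 4 DMM libraries, with WT in grey and KO in red, circles for 2 weeks and triangles for 4 weeks, and lines joining the libraries of a week; each axis starts at 0. Oscar is at 0 TPM in both KO libraries, Mmp2, Serpinf1 and Lum run lower in KO at both weeks, and the lines of Col2a1 cross, from 93.2 to 128 TPM at 2 weeks and from 170 to 59.5 TPM at 4 weeks.

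Enzymes that break down matrix leaned lower in KO. Of 18 tested genes of metalloproteinases, aggrecanases and cathepsins, 14 were lower and 1 was higher at both weeks, 8 of them lower at an unadjusted p under 0.05, with medians of -0.24 and -0.30; edgeR called none, DESeq2 2 and limma 0. Mmp3, stromelysin, was at 5.67 TPM in WT and 2.81 TPM in KO at 2 weeks, then at 2.78 TPM in WT and 1.51 TPM in KO at 4 weeks (log2 -0.88 and -0.61, fitted -0.78 ± 0.22 SE, adjusted p = 0.263). KO was lower at each week, but the KO value at 2 weeks was level with the WT value at 4 weeks. Mmp13, the collagenase that cleaves type II collagen, was at 162 and 128 TPM and at 133 and 81.3 TPM (adjusted p = 0.351). Mmp9, which osteoclasts and neutrophils make, was at 365 and 268 TPM and at 494 and 345 TPM (adjusted p = 0.291 by edgeR and 0.0471 by DESeq2, and up to 0.981 over all alternatives). Adamts5, the main aggrecanase of mouse cartilage, was at 2.18 and 1.92 TPM at 2 weeks and 2.15 and 2.25 TPM at 4 weeks, with no common direction. Among 12 protease inhibitor genes 8 were lower and 2 higher at both weeks.

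OSCAR acts in osteoclasts. Of 13 osteoclast genes tested, 10 had lower values and 1 had a higher value in KO at both weeks, with medians of -0.34 and -0.35. Oscar, a member of the list, was its only call by edgeR, and 7 members were lower and 1 was higher at an unadjusted p under 0.05. Oscar is counted among these lower genes and in the medians, and its deletion fixed that outcome. Over all genes tested 32.9% were lower at both weeks and 6.39% were lower at such a p. DESeq2 called Acp5 and Mmp9 as lower and Car2 as higher, and limma called Oscar and Acp5. After sham surgery the medians were -0.02 and 0.12. Acp5, the tartrate-resistant acid phosphatase, was at 552 TPM in WT and 382 TPM in KO at 2 weeks, then at 672 TPM in WT and 416 TPM in KO at 4 weeks (log2 -0.40 and -0.43, adjusted p = 0.264 by edgeR, 0.0259 by DESeq2 and 0.0234 by limma, and from 0.0226 to 0.981 over all alternatives). Each KO value was below both WT values. Car2, the carbonic anhydrase that acidifies the resorption pit and is also abundant in red cells, was the exception, at 770 and 921 TPM and at 879 and 852 TPM (log2 0.41 and 0.23).

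None of the partners through which OSCAR signals was called by edgeR. Of 14 genes of the ITAM pathway, the deleted Oscar among them, 8 were lower and 0 higher at both weeks. These are 57.1% and 0%, against 32.9% and 31.1% of all genes tested. The medians were -0.13 and -0.13, and 3 were lower at an unadjusted p under 0.05. Oscar was the only call by edgeR. Fcer1g, the Fc receptor gamma chain, was at 347 and 300.2 TPM and at 415 and 386 TPM (log2 -0.09 and 0.17, adjusted p = 0.888). Tyrobp, the adaptor DAP12, was at 823 and 679 TPM and at 907 and 810 TPM (adjusted p = 0.947), and the kinase gene Syk was at 47 and 41.2 TPM and at 56.5 and 39.9 TPM (adjusted p = 0.636).

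Of the death pathway, the study followed Tnfsf10, which encodes the death ligand TRAIL, and Tnfrsf11b, which encodes its decoy receptor osteoprotegerin. Tnfsf10 was at 1.75 TPM in WT and 1.22 TPM in KO at 2 weeks, then at 1.80 TPM in WT and 1.46 TPM in KO at 4 weeks. Both KO values were below both WT values in TPM, but after TMM scaling the log2 difference was -0.38 at 2 weeks and -0.04 at 4 weeks (fitted -0.22 ± 0.156 SE, adjusted p = 0.572). After sham surgery Tnfsf10 stood at 0.62 and 0.45, and the DMM minus sham difference was -0.76 (edgeR adjusted p = 0.0815). The study chose candidates by comparing DMM-to-sham ratios between genotypes. By PCR and immunostaining it reported lower TRAIL in KO than in WT after DMM. Tnfrsf11b was at 11.2 and 8.15 TPM and at 18.1 and 12 TPM (log2 -0.33 and -0.33, adjusted p = 0.622). For osteoprotegerin mRNA and protein, the paper reported a decrease after DMM in WT and no significant change in KO. It also described lower expression in KO at an early stage. Of 28 death ligands, receptors and caspases tested, 14 were lower and 7 higher at both weeks, with medians of -0.05 and -0.03. None of the 28 had an unadjusted p under 0.05 by edgeR, and limma called none. DESeq2 called none either, but it gave no adjusted p to 10452 of the genes tested, Tnfsf10 and Tnfrsf11b among them. In the BCL2 family, which holds pro-survival and pro-death regulators of the mitochondrion, 5 of 15 were lower and 4 higher at both weeks; Bax stood at 0.05 and 0.05 and Mcl1 at 0.02 and 0.01.

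Of the hypoxia and inflammatory genes the study names, Epas1, the hypoxia factor HIF-2alpha, was at 10.8 and 10.2 TPM at 2 weeks and 13.9 and 10.3 TPM at 4 weeks (adjusted p = 0.845). Ptgs2, which encodes cyclooxygenase 2, was at 0.78 and 0.73 TPM and at 1.85 and 0.86 TPM (log2 0.04 and -0.83, adjusted p = 0.438). Nos2 did not reach 1 TPM in any library and was not tested; its counts were 29 and 10 at 2 weeks and 8 and 5 at 4 weeks. Over 26 genes of TNF and NF-kappaB signaling 13 were lower and 4 higher at both weeks, and Il1b, at 42.7 and 38.8 TPM and at 83.5 and 57.2 TPM, had an adjusted p of 0.792.

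Growth factor and vascular genes leaned lower as well. Of 32 TGF-beta and BMP genes 25 were lower and 0 higher at both weeks, with medians of -0.23 and -0.16, and 8 were lower at an unadjusted p under 0.05. Of 24 WNT genes 16 were lower and 1 higher. Wif1, a secreted WNT inhibitor that chondrocytes and osteoblasts make, was at 75.5 and 60.2 TPM and at 82.4 and 45 TPM (log2 -0.22 and -0.64, adjusted p = 0.358). Of 15 endothelial genes 11 were lower and 0 higher, with Plvap, the diaphragm protein of capillaries, at 40.7 and 31.6 TPM and at 38.7 and 28.6 TPM (adjusted p = 0.346). Of 20 immediate-early genes, the first genes transcribed after a stimulus, 14 were lower and 2 higher, and Egr1 was at 16.6 and 9.93 TPM and at 19.1 and 11.7 TPM (adjusted p = 0.288). Of 18 clock genes 13 were lower and 1 higher, with Nr1d1 at 11.1 and 7.19 TPM and at 13 and 8.19 TPM (adjusted p = 0.269); the hour of dissection is not in the labels. No member of these 5 lists was called by edgeR or limma. DESeq2 called none either, but it gave no adjusted p to many genes, among them Plvap, Egr1 and Nr1d1. At an unadjusted p under 0.05 by edgeR, 4 of 24 WNT, 7 of 15 endothelial and 7 of 20 immediate-early genes were lower. So were 2 of 18 clock genes, against 6.39% of all genes tested, and the clock count lies near that share.

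Red cell and dividing-cell genes made up the opposite side. All 15 erythroid genes tested were higher in KO at both weeks (100%, against 31.1% of all genes), with medians of 0.36 and 0.24. By edgeR 0 were called and 9 had an unadjusted p under 0.05, while DESeq2 called 3 and limma 0. On the TPM scale, where the median gene leans toward WT, 7 of the 15 were higher and 0 lower at both weeks. Of all 12538 genes tested, 731 were higher and 7963 lower at both weeks on that scale. Rhag, the Rh-associated glycoprotein of the red cell membrane, was at 66.1 TPM in WT and 85 TPM in KO at 2 weeks, then at 83.9 TPM in WT and 98.3 TPM in KO at 4 weeks (log2 0.49 and 0.49, fitted 0.49 ± 0.0834 SE, adjusted p = 0.109). Hbb-bs, an adult beta globin, was at 132827 and 152647 TPM and at 138562 and 174259 TPM (adjusted p = 0.394). In both genes KO was above WT at each week, as was the hemoglobin share given above. Others among the lowest p-values on this side were Abcg2, a transporter of porphyrins, at 34 and 42.3 TPM and at 44.9 and 49.7 TPM (adjusted p = 0.2), and Cldn13, at 115 and 168 TPM and at 152 and 172 TPM (adjusted p = 0.218). DESeq2 called Rhag, Abcg2 and Cldn13, at adjusted p-values of 0.000984, 0.0117 and 0.00253. Over all alternatives run, the highest adjusted p of each was 0.981. Of 22 cell cycle genes 21 were higher and 0 lower at both weeks, with medians of 0.27 and 0.15 and 14 at an unadjusted p under 0.05. By edgeR 0 were called, while DESeq2 called 1 and limma 0. On the TPM scale 5 of them were higher and 1 was lower at both weeks. Cdk1, the mitotic kinase, was at 181 and 211 TPM at 2 weeks and 204 and 202 TPM at 4 weeks (log2 0.34 and 0.30, adjusted p = 0.263). The erythroid share of TPM was 30.9% and 34.7% at 2 weeks and 31.2% and 37.3% at 4 weeks, in WT and KO, and the part of blood or marrow content in these differences was not tested.

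Other blood cell lists differed by week or not in 1 direction. Of 19 neutrophil genes 6 were lower and 2 higher at both weeks, with medians of -0.19 and 0.04; S100a8, a calcium-binding alarm protein of neutrophils, was at 27418 and 21208 TPM and at 32173 and 31731 TPM (adjusted p = 0.991). Platelet genes had medians of -0.14 and 0.27, and Pf4, platelet factor 4, was at 73 and 63.8 TPM at 2 weeks and 259 and 299 TPM at 4 weeks (adjusted p = 0.66), so that its level differed more between weeks than between genotypes. T and natural killer cell genes went from a median of -0.17 to 0.55 and adipocyte genes from -0.12 to 0.61; Cfd, the adipocyte factor adipsin, was at 70 and 41.2 TPM and at 52.4 and 116 TPM (adjusted p = 0.573). Interferon-stimulated genes had medians of 0.31 and -0.04, with 7 of 20 higher and 0 lower at both weeks. By TPM 2 of the 20 were higher and 5 lower, where 731 of all 12538 genes tested were higher and 7963 lower. Isg15 was at 81.5 and 132 TPM and then at 119 and 106 TPM (log2 0.82 and 0.11, adjusted p = 0.306). Heat shock genes had medians of 0.28 and 0.02. The test of genotype by week was not made, since each week held 1 DMM library per genotype.

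At least 2-fold differences at both weeks were found in 9 genes lower in KO (0.0718% of the genes tested) and 12 higher (0.0957%). They were poorly counted: 14 of the 21 stayed under 50 counts in every DMM library, and none reached 50 in all 4. Among the better counted, the erythroid hormone gene Erfe had 35 counts in WT and 71 in KO at 2 weeks and 29 and 85 at 4 weeks (log2 1.34 and 1.22, adjusted p = 0.263). Exosc6, an RNA exosome subunit gene, had 47 and 90 counts, and 14 and 82 counts. Cd300ld5, a myeloid receptor gene, had 66 and 20 counts, and 17 and 6 counts.

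The spread of the genotype differences gives the scale for all these values. Over 11081 genes with at least 50 counts in every DMM library, the SD of the log2 difference was 0.212 at 2 weeks and 0.229 at 4 weeks after DMM, and 0.319 and 0.262 after sham surgery. Across these genes the 2-week and 4-week differences, which share no library, were correlated at 0.373 (Pearson) and 0.403 (Spearman); the genes are not independent of each other, and genes of 1 cell type move together with its share. Of all genes tested, 4127 were lower and 3902 higher in KO at both weeks after DMM (32.9% and 31.1%), and 3589 lower and 4069 higher after sham surgery (28.6% and 32.5%).

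Sham surgery gave the direction of the same genotype difference in uninjured joints, and for matrix genes it was the reverse. After sham 273 genes were called (2.18%), 250 of them higher in KO, and all 6 genes called after DMM were among the 273, 5 of them in the same direction and Angptl2 in the other. Across the 11081 genes the fitted differences after DMM and after sham, from different libraries, were correlated at -0.46 (Pearson) and -0.467 (Spearman). The difference between both contrasts was called for 657 genes (5.24%). These genes were picked by the size of that difference, which by itself favors opposite signs in the 2 contrasts. Their signs and medians therefore describe the picked genes and do not test a reversal. In 480 of the 657 KO stood lower after DMM than after sham relative to WT. Of the 480, 479 were above 0 after sham and below 0 after DMM, with medians of 0.57 and -0.33. In the other 177 genes, 176 were below 0 after sham and above 0 after DMM, with medians of -0.29 and 0.32. In 491 of the 657 the sham difference was the larger in size. When each of the 8 libraries was left out in turn, the sham count ran from 2 (without KO sham at 2 weeks) to 893 (without WT sham at 4 weeks) and the count for the difference from 15 (without WT DMM at 4 weeks) to 1977 (without WT sham at 4 weeks).

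All 21 collagen genes were higher in KO at both weeks after sham, with medians of 0.62 and 0.60, against -0.11 and -0.84 after DMM, and the difference between the contrasts was called for 13 of them. Col1a2 stood at 0.80 and 0.80 after sham and at -0.24 and -0.72 after DMM (adjusted p of the difference = 0.0104). Mmp2 stood at 0.54 and 0.67 after sham and at -0.46 and -0.73 after DMM (adjusted p of the difference = 0.00438). Chondrocyte genes had medians of 0.45 and 0.38 after sham. Cell cycle genes had medians of -0.15 and -0.27 after sham, opposite to those after DMM, and the difference was called for 5 of 22; among them was Cdk1, at -0.34 and -0.28 after sham (adjusted p of the difference = 0.0196). Of the 57 genes around Oscar the difference was called for 5, of which 1 was lower and 4 were higher after DMM than after sham. The called receptor genes kept their sign: Pira2 stood at -1.04 and -1.30 after sham, Pirb at -0.58 and -0.69, Gm14548 at 0.95 and 1.07, with adjusted p-values of the difference of 0.952, 0.717 and 0.458.

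**Figure D4:**
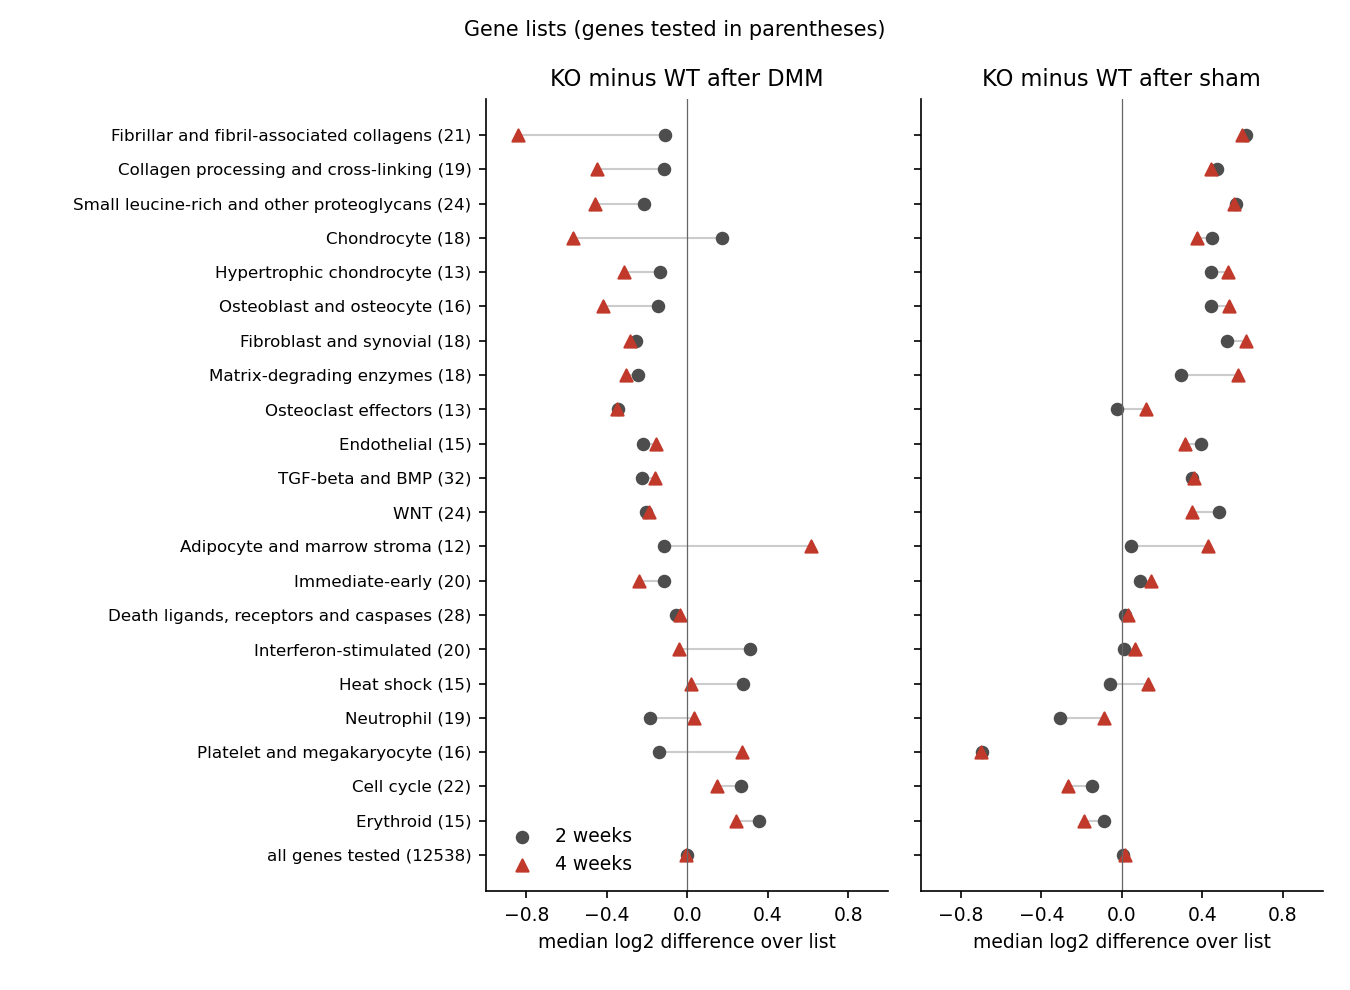
Median log2 difference KO minus WT over each of 21 gene lists and over all genes tested, after DMM (left) and after sham surgery (right); circles are 2 weeks and triangles 4 weeks, and the number of genes tested stands beside each name. Matrix, bone and vessel lists lie left of 0 after DMM, apart from the chondrocyte list at 2 weeks (0.17), and right of 0 after sham, while erythroid and cell cycle lists lie on the opposite sides, and all genes lie at 0.

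**Figure D5:**
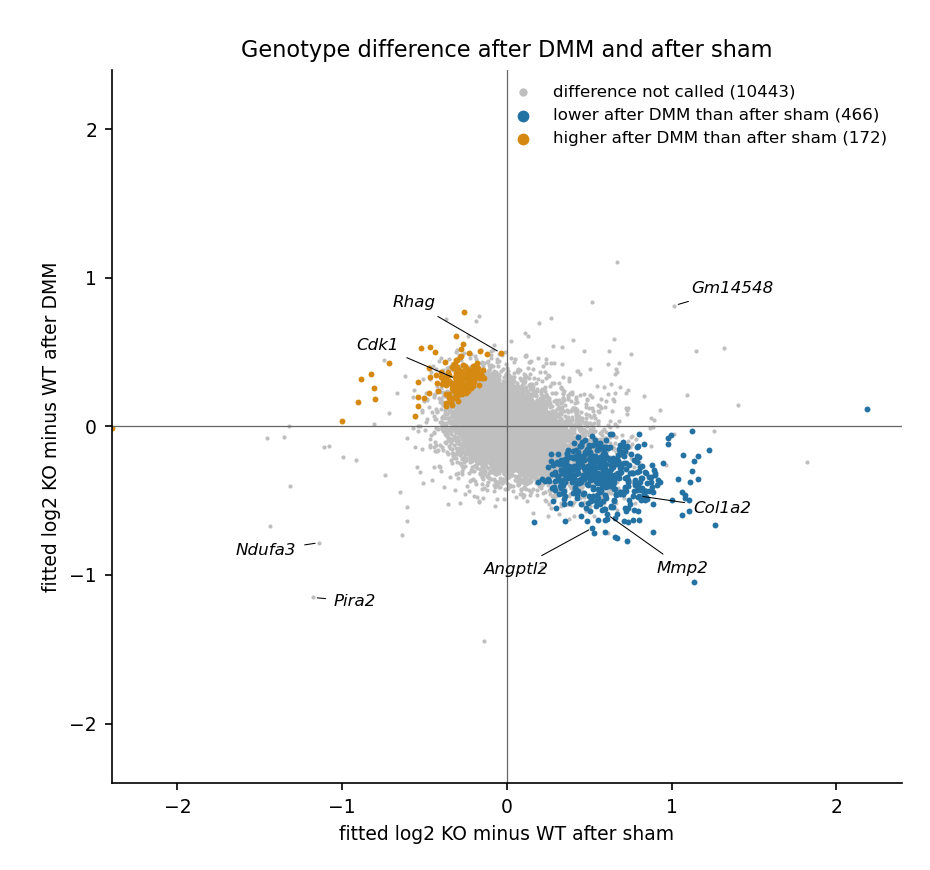
Fitted log2 KO minus WT after sham (horizontal axis) and after DMM (vertical axis) for 11081 genes with at least 50 counts in every DMM library; blue marks 466 genes called lower and orange 172 genes called higher after DMM than after sham, and grey the other 10443. Colored genes, picked by the difference between both contrasts, fill the lower right and upper left, where the sign differs between surgeries. Pira2, Ndufa3 and Gm14548 lie near the diagonal of equal difference.

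Counted over all lists, 23 of 37 had medians below 0 at both weeks after DMM, 5 had medians above 0 at both weeks and 9 had medians of opposite sign. Of all list members, Oscar and Ndufa3 were the only ones called by edgeR. The lists overlap in genes and were scaled together, so that these counts describe the tables and are not separate tests.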

How the data were processed

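Articular cartilage of WT and Oscar-/- mice, 10 cartilages combined per library, was sequenced as paired 101-base reads of stranded mRNA. Reads were trimmed, mapped with STAR to GRCm38 and assigned to genes by RSEM, and the authors deposited the resulting expected counts and TPM. The processing notes name FastQC 0.11.8, STAR 2.6.0a, RSEM 1.2.17 and a human build, while gene identifiers are those of mouse. RSEM divides shared reads between genes, so that 25.3% of nonzero expected counts were not whole; they were rounded. TPM moves with the share of a few abundant genes.

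Of 52636 identifiers, 52403 matched GENCODE M21. Protein-coding genes over 1 TPM in at least 1 library were tested (12538). edgeR 4.0.16 quasi-likelihood tests used all 8 libraries (13189181 to 18533609 counts), TMM scaling, the 4 combinations of genotype and surgery, and week, with 3 residual degrees of freedom. Values by week are TMM-scaled log2 CPM with a prior count of 1. The test was also run on simulated data of 12538 genes for KO against WT after DMM. It found 96% of 100 genes with a log2 change of 1 and 100% of 100 with a log2 change of 2, with 13 false calls. All simulated libraries had the same mean profile, with no effect of week, lane, surgery or cell content. The spread was taken from these data, and the changed genes averaged at least 50 counts. These shares are therefore not the power of the test in the real libraries. Intervals and floors cover counting error only. Nothing in the labels ties libraries to single animals.

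Genes named were those the study names, up to 4 per list with the largest called change or else the highest TPM, the 12 per direction with the largest smaller change of both weeks at 50 counts or more, and the 10 per direction with the lowest p; a part of these is printed, and some are not reported here. Lilra6, Tarm1, Leng1, Tsen34, Tfpt, Prpf31, Ncr1, Eps8l1, Erfe, Exosc6, Cd300ld5 and the pseudogenes were chosen after their values were seen. The comparison and the lists were chosen with earlier results of these data known. Alternatives covered scaling, filters, gene types, DESeq2 1.42.0, limma 3.58.1, the DMM libraries alone, no week term and leaving out each library. Other software was matplotlib 3.10.9, scipy 1.17.1, numpy 2.4.6, pandas 2.3.3, Python 3.11.15 and R 4.3.3.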

Additional observations from a re-analysis of the deposited data

Results flagged for a closer look

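For 31 of 74 named genes the genotype difference after DMM differed from that after sham (edgeR interaction, adjusted p under 0.05). The share over all genes tested was 5.24%. Part of the named genes had been picked for a low p-value or a large change after DMM, and that contrast enters the tested difference. The 31 genes are therefore a selected set, and their share cannot be compared with that of all genes. The values are log2 KO minus WT after DMM minus the same after sham. Among matrix and mesenchymal genes the difference was -1.20 for Angptl2, -1.18 for Cd109, -1.42 for Col15a1, -1.20 for Mmp2, -1.19 for Serpinf1, -1.15 for Nbl1 and -1.23 for Lum. For the fibrillar collagens it was -1.29 for Col1a1, -1.27 for Col1a2 and -1.40 for Col3a1, and for their processing partners -0.94 for Pcolce and -0.93 for Serpinh1. It was -0.80 for Bgn, -1.13 for Fmod, -1.20 for Fn1, -0.89 for Bglap, -0.92 for Mmp13, -0.59 for Plvap, -0.99 for Igsf10 and -1.40 for Nectin3. The stimulus gene Egr1 stood at -0.97, the clock gene Nr1d1 at -0.79 and the poorly counted Cd300ld5 at -3.86.

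The sign was positive for the remaining genes named here. The difference was 0.53 for Rhag, 0.61 for Abcg2, 0.82 for Cldn13, 0.74 for Tmem14c, 0.57 for Fam210b, 0.80 for Nqo1, 0.63 for Cdk1 and 0.99 for Pf4. Each condition was 1 library, and the part of a single library in these differences was looked at only by leaving each out in turn.

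Signal was also present in receptor pseudogenes near Oscar, which lie outside the tests of protein-coding genes. The lowest KO count after DMM was 421 for Gm15922, 30 for Gm15925 and 35 for Gm15931, against highest WT counts of 363, 3 and 16. In a test of all gene types their adjusted p-values after DMM were 0.246, 0.0928 and 0.287.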

How the results depend on the processing

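The 6 calls after DMM were the same 6 genes under DESeq2 size factors and under TMM without the hemoglobin genes. Library totals kept 4 lower and 0 higher (1772 at an unadjusted p under 0.05), no filter on level gave 9 lower and 1 higher with all 6 among them, and testing all gene types gave 2 lower (Oscar and Pira2) and 0 higher (1682 unadjusted). DESeq2 gave 15 lower and 40 higher, limma on log2(TPM + 1) 7 lower and 1 higher, and on log2(TPM + 0.1) 8 lower and 1 higher, sharing 1, 3 and 3 of the 6 genes. The DMM libraries alone, with 1 residual degree of freedom, gave 43 lower and 46 higher. Without a week term 1 lower (Oscar) and 0 higher were left (427 unadjusted), and with the genes within 2 Mb of Oscar left out, chosen after seeing the data, 1 lower (Angptl2) and 0 higher. Leaving out each library gave 0 to 31 lower and 0 to 17 higher: 20 and 9 without WT Sham 2w, 0 and 0 without WT DMM 2w, 2 and 0 without KO Sham 2w, 31 and 17 without KO DMM 2w, 19 and 3 without WT Sham 4w, 0 and 0 without WT DMM 4w, 2 and 0 without KO Sham 4w, and 1 and 0 without KO DMM 4w. The counts of 0 had 740 and 1138 genes at an unadjusted p under 0.05.

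The 273 calls after sham became 411 with no filter on level, 97 and 101 with limma at both pseudocounts and 0 without a week term (977 unadjusted), and ran from 2 to 893 when a library was left out: 2 without KO Sham 2w, 23 without KO Sham 4w, 55 without WT DMM 2w, 56 without WT DMM 4w, 181 without WT Sham 2w, 411 without KO DMM 4w and 893 without WT Sham 4w. The 657 calls for the difference became 350 and 334 with limma and 0 without a week term (1355 unadjusted), and ran from 15 to 1977: 15 without WT DMM 4w, 37 without KO Sham 2w, 73 without WT DMM 2w, 102 without KO Sham 4w, 227 without KO DMM 4w, 409 without KO DMM 2w and 1977 without WT Sham 4w. Genes at least 2-fold lower and higher numbered 23 and 6 by TPM ratio, 4 and 5 with a prior count of 5, 57 and 30 at 1.5-fold, and 40 and 43 among all gene types. The cause of these shifts was not tested.

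No named gene called in any fit reversed its sign. Scaling by library totals moved the median of all genes to -0.12, and limma on TPM to -0.17 and -0.20; 6 and 7 of 74 named genes, none of them called, then had the other sign. Libraries were paired by week, which is a term of the model; with 1 library for each genotype, surgery and week, no further block could be fitted.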

Other observations

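None of the further genes in this paragraph was called by edgeR after DMM. Tmem14c, a mitochondrial membrane protein of heme synthesis, was at 222 TPM in WT and 279 TPM in KO at 2 weeks, then at 288 TPM in WT and 324 TPM in KO at 4 weeks (adjusted p = 0.25), and Fam210b, a mitochondrial protein of red cell precursors, was at 22.5 and 26.9 TPM and at 27.1 and 29.7 TPM (adjusted p = 0.25). DESeq2 called both, at adjusted p-values of 0.00486 and 0.0434. In both genes KO was above WT at each week, as was the hemoglobin share. Nqo1, a quinone reductase, was at 8.80 and 11.8 TPM and at 10 and 11.7 TPM (adjusted p = 0.263). On the lower side, Igsf10 had log2 differences of -0.62 and -0.64 (adjusted p = 0.25), and the adhesion gene Nectin3 was at 2.57 and 1.46 TPM and at 2.16 and 1.03 TPM (adjusted p = 0.263). Fn1, which encodes fibronectin, was at 216 and 178 TPM and at 222 and 130 TPM (log2 -0.18 and -0.51, adjusted p = 0.3 by edgeR and 0.0475 by DESeq2, and up to 0.981 over all alternatives).

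Of 18 fibroblast and synovial genes 12 were lower and 1 was higher in KO at both weeks, with medians of -0.26 and -0.28, and of 9 tendon and ligament genes 6 were lower and 0 higher, with medians of -0.13 and -0.51. Of 11 pericyte genes 6 were lower and 1 was higher, and of 18 IGF and FGF genes 9 were lower and 1 was higher. Macrophage genes had medians of -0.08 and 0.05, with 5 of 16 lower and 4 higher, and C1qb, a complement subunit that macrophages make, was at 64.8 and 58.5 TPM and at 94.5 and 79.9 TPM (log2 -0.02 and 0.02, adjusted p = 0.989). B cell genes had medians of 0.04 and 0.03, and those of mast cells, basophils and eosinophils -0.14 and -0.01. Of 20 hypoxia genes 8 were lower and 4 higher. Of 13 genes encoded in mitochondrial DNA 10 were higher and 0 lower, with medians of 0.14 and 0.28, while their share of TPM was 7.64% and 7.06% at 2 weeks and 3.85% and 3.8% at 4 weeks. Skeletal muscle genes, of which 8 were tested, held between 0.00473% and 0.011% of TPM in the 4 DMM libraries, and their medians were 0.08 and -0.46.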
